A study of Homo sapiens with 9 samples.

Results

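Described here are 9 genes for proteins that the liver secretes into plasma: ALB (albumin), TTR (transthyretin), RBP4 (retinol-binding protein), AHSG (fetuin-A), AMBP (the precursor of alpha-1-microglobulin and bikunin), SERPINA1 (alpha-1-antitrypsin), ORM1 (orosomucoid 1), HP (haptoglobin) and C3 (complement component 3). They were named by symbol, with earlier results of these data known, and each symbol matched 1 of the 63677 gene identifiers in the count files. All 9 were among the 18237 genes tested, which had a level of 1 CPM (counts scaled to the library total) or more in 2 or more libraries. The cells are HuH-7, an established human hepatocellular carcinoma line, and ribosomal RNA-depleted total RNA was sequenced on an Ion Torrent Proton. There were 9 conditions with 1 library each. The single treatments were acetaminophen at 10 mM, caffeine at 2 mM, arsenic at 5 µM or 15 µM, and serum exosomes prepared from a volume of 1 ml. The combinations were acetaminophen at 10 mM with the exosomes, acetaminophen at 10 mM with caffeine at 2 mM, and copper at 5 µM together with arsenic at 5 µM, and an untreated culture served as control. The series title presents these conditions as models of hepatotoxicity.

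Hepatocytes make most plasma proteins, and 8 of the 9 genes fall into 2 classes of the acute phase response, the shift in liver secretion that follows inflammation. Negative acute phase proteins (ALB, TTR, RBP4, AHSG) are made less during inflammation, whereas positive ones (SERPINA1, ORM1, HP, C3) are made more, mainly under interleukin-6 through STAT3 and under interleukin-1 through NF-κB and C/EBP factors. AMBP stands in neither class here and is transcribed in hepatocytes under the same liver-enriched factors, among them HNF1 and HNF4. Transthyretin carries thyroxine and binds retinol-binding protein in plasma, alpha-1-antitrypsin inhibits neutrophil elastase, haptoglobin binds free haemoglobin, and C3 is the central component of complement.

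Promoter sequence runs from 250 bases before to 50 bases after the annotated start, and RefSeq (GRCh38.p14) gave it for 6 of the 9 genes, without TTR, HP and C3. In the acetaminophen and arsenic 5 µM libraries the scaled levels of 4 genes, defined below, ran in opposite directions. ORM1, RBP4 and AMBP were low where ALB was high. The promoters of these 4 genes are therefore printed, 5′ to 3′ on the gene's strand. They lie at chr4:73404037-73404336 on the plus strand for ALB, chr9:114322848-114323147 on the plus strand for ORM1, chr10:93601464-93601763 on the minus strand for RBP4, and chr9:114078251-114078550 on the minus strand for AMBP. Capitals mark matches to the searched motifs.
ALB: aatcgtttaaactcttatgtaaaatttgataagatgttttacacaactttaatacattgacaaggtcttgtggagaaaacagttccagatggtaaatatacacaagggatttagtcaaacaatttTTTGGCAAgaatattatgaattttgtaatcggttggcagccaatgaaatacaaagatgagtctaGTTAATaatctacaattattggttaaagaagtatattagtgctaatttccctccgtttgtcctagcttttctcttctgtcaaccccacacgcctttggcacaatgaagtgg
ORM1: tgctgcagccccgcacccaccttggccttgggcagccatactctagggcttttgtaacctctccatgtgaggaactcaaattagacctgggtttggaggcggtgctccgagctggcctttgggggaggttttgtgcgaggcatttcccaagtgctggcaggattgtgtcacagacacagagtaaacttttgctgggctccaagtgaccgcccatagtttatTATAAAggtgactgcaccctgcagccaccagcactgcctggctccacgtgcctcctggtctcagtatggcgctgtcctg
RBP4: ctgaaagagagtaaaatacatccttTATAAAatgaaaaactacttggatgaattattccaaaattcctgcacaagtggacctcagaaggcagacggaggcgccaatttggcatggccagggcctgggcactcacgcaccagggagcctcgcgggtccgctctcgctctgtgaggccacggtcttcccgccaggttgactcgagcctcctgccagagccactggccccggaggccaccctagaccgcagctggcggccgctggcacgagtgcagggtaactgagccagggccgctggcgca
AMBP: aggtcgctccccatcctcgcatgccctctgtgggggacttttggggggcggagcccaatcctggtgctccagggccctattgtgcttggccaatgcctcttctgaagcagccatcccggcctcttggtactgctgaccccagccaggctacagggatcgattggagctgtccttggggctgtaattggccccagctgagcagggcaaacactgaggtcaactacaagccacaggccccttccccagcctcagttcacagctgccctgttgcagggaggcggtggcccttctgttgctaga
The HNF1 letters GTTAAT, searched on both strands, were in the ALB promoter with the first base at position -61 from the start and in the SERPINA1 promoter at -76. These letters were in 7.09% of the 27305 promoters of the same length. The C/EBP letters TTGCNNAA, on both strands, were in the ALB promoter at -125 and in the AHSG promoter at -59, and in 10.8% of all promoters. The TATA letters TATAAA, on the given strand, were in the ORM1 promoter at -29, in the RBP4 promoter at -225, and in 7.88% of all promoters. CTGGGAA, the core of interleukin-6 response elements, and CAAAGTCCA, a binding sequence of HNF4, matched on either strand in AHSG alone of the 6, at 7 and at -179, and in 11.2% and 0.381% of all promoters. The AMBP window held none of the 5. These matches describe letters in a window and none overlapped another.

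The libraries held 658725 counts on genes (acetaminophen with exosomes) to 8227906 (caffeine), with 951816 in the control. Levels from here on are TMM-scaled CPM, that is, CPM after edgeR's trimmed-mean scaling. Of 12 genes listed as hepatocyte markers 11 were tested, and their summed level was 5116 to 20895 CPM. The 11 macrophage and Kupffer cell markers summed to 0 to 5.81 CPM and the 12 blood cell and platelet markers to 0.426 to 2.9 CPM, with HBA2, HBD, PF4, PPBP and GP9 at 0 in every library. The 10 endothelial and stellate cell markers summed to 12.8 to 34.5 CPM, with PECAM1 at 0. The acetaminophen and the arsenic 5 µM libraries stood apart from the others. Small nucleolar RNA genes took 11.5% of their counts with acetaminophen and 35.5% with arsenic 5 µM, against 4.86% in the control. Across genes, the deviation of log2 level from the mean of all libraries fell with GC content there (Pearson's r across genes was -0.50 and -0.40, and it was 0.17 in the control; genes are not independent replicates). It rose with GC content with acetaminophen and caffeine (r 0.30) and with arsenic and copper (r 0.33). Main ratios that rest on the acetaminophen or arsenic 5 µM library are therefore also given after removal of a trend on GC content and transcript length. For the model, values without those 2 libraries are given. No condition was replicated, so the 95% intervals below cover counting error alone, and PCR reads without molecular identifiers are not independent molecules. In such bulk RNA, fewer cells and less RNA per cell cannot be told apart.

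ALB was the most abundant of the 9 in every library per kilobase of transcript. In the control, levels per kilobase were 3009 CPM for ALB, 1368 for SERPINA1, 1202 for AMBP, 629 for RBP4, 605 for AHSG, 272 for ORM1, 254 for TTR, 236 for C3 and 4.69 for HP. The counting intervals of RBP4 and AHSG overlapped in that order, as did those of ORM1 and TTR and those of TTR and C3. SERPINA1 and AMBP held the second and the third place in the control, and HP was last in 8 of the 9 libraries, the exception being caffeine, where ORM1 was last. The counting intervals of HP and ORM1 overlapped with acetaminophen and with acetaminophen and caffeine, so their order there is uncertain. The genes differed in how far they varied across libraries. The ratio of the highest to the lowest library was 27.1 for HP, 21.4 for ORM1, 13.1 for RBP4, 9.14 for AMBP, 6.55 for AHSG, 6.38 for TTR, 3.79 for ALB, 3.11 for SERPINA1 and 2.95 for C3. For TTR, RBP4, AHSG and ORM1 the control had the highest level of all 9 libraries. Arsenic at 5 µM had the lowest level of 6 genes: AHSG, RBP4, SERPINA1, C3, ORM1 and AMBP. Together the 9 genes took 0.725% (arsenic 15 µM) to 1.73% (acetaminophen) of all counts. ALB made up 81.4% of these counts with acetaminophen and 84.1% with arsenic 5 µM, against 48.7% in the control.

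**Figure D1:**
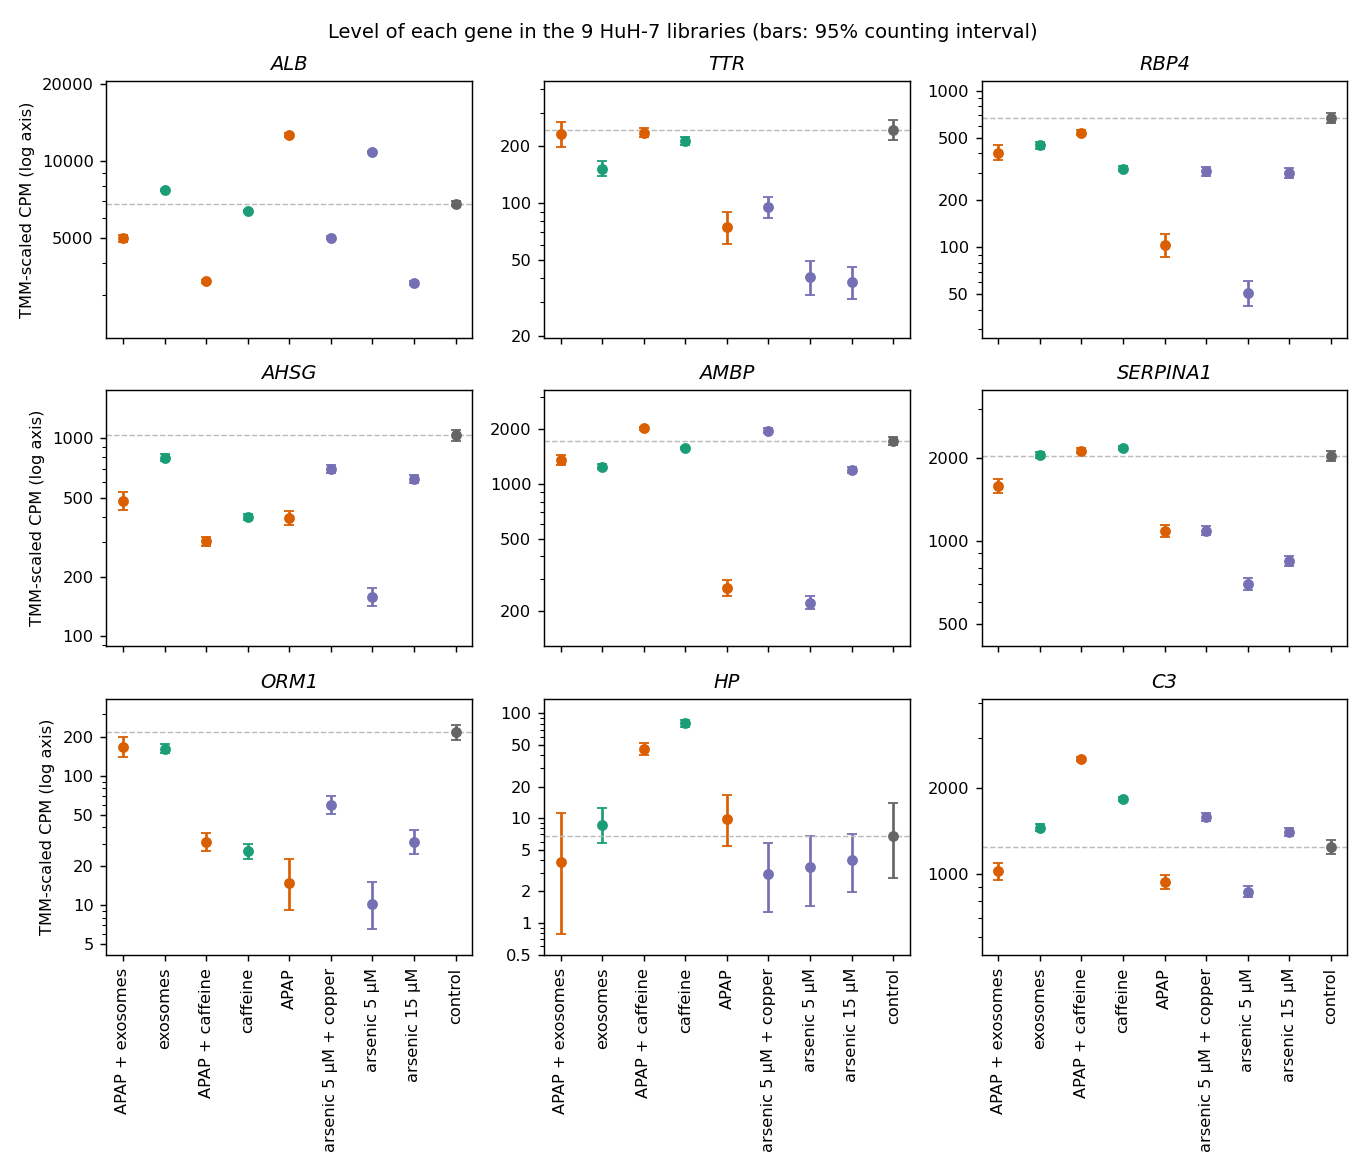
Level of each of the 9 genes in each library, as TMM-scaled CPM on a log axis with the 95% counting interval as bars; APAP is acetaminophen and the dashed line is the control. ALB was highest (12644 and 10855 CPM), and ORM1, RBP4 and AMBP were lowest, in the acetaminophen and arsenic 5 µM libraries.

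Acetaminophen, a drug that injures hepatocytes in overdose through a reactive metabolite, was compared on 3 backgrounds, and the genes differed between them. On the untreated background AMBP was at 267 CPM with acetaminophen, against 1724 CPM in the control, a ratio of 0.155 (95% interval 0.138 to 0.173). RBP4 was at 103 CPM, against 672 CPM in the control (ratio 0.154, 0.128 to 0.184). ORM1 was at 14.8 CPM, against 218 CPM in the control (ratio 0.0679, 0.0412 to 0.106). These 3 ratios were the lowest of the 9. TTR was at 74.6 CPM with acetaminophen, against 243 CPM in the control (ratio 0.307, 0.242 to 0.387). AHSG was at 397 CPM, against 1035 CPM (ratio 0.383, 0.346 to 0.425). A gene was counted as apart when its ratio was at least 2-fold either way and its interval excluded 1, and 5 of the 9 genes were apart and lower, with 0 higher. By the same measure 12.1% of all 18237 genes were lower and 13% higher. The median log2 ratio was -1.38 over the 9 genes and -0.20 over all genes.

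ALB went the other way in the acetaminophen library, at 12644 CPM against 6809 CPM in the control (ratio 1.86, 1.81 to 1.91), which is below the 2-fold limit. With the trend on GC content and transcript length removed, its log2 ratio was 0.52, where 0.89 had been measured. SERPINA1 was at 1082 CPM with acetaminophen and 2032 CPM in the control (ratio 0.533, 0.498 to 0.569), and C3 at 936 CPM and 1241 CPM (0.754, 0.698 to 0.815). HP had 14 counts with acetaminophen and 7 in the control, so its ratio of 1.45 has an interval of 0.549 to 4.26. ALB, the gene of lowest GC content (41.3% in its longest annotated transcript), had the highest ratio, and AMBP (56.9%) and RBP4 (57.8%) had low ones. TTR had the second lowest GC content (46.9%) and a ratio of 0.307, and ORM1 (53%) had the lowest ratio. The fitted trend on GC content and transcript length was 0.38 for ALB and -0.48 for TTR on the log2 scale. It was -0.94 for AMBP and -1.05 for both RBP4 and ORM1. Whether GC content or length underlies these ratios was not tested. With the trend on GC content and transcript length removed, 4 of the 5 genes still differed at least 2-fold: the log2 ratio was -2.80 for ORM1, -1.74 for AMBP, -1.65 for RBP4 and -1.22 for TTR, while AHSG was at -0.77. C3, at 56.5% GC, was at -0.41 before and -0.14 after that correction.

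**Figure D2:**
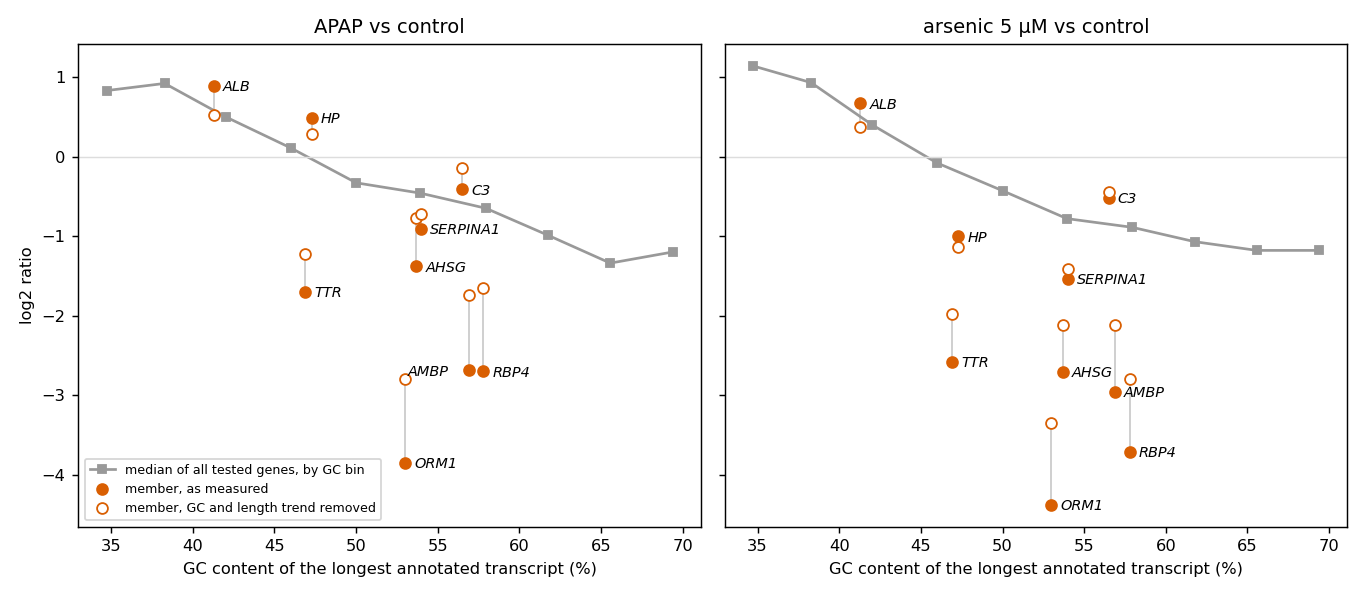
Log2 ratio to the control for acetaminophen (left, APAP) and arsenic 5 µM (right) against GC content of the longest annotated transcript in percent. Grey squares are medians of all tested genes in bins of GC content, filled points the 9 genes as measured and open points the same after removal of the GC and length trend; ORM1, RBP4 and AMBP lie below the grey line in both panels.

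On the other backgrounds none of the 9 was apart. With exosomes present, AMBP was at 1357 CPM with acetaminophen and 1243 CPM without it (ratio 1.09, 1.02 to 1.17). RBP4 was at 403 CPM with acetaminophen and 449 CPM without (ratio 0.898, 0.793 to 1.01), and ORM1 at 168 CPM and 163 CPM (1.03, 0.847 to 1.25). TTR, which was low with acetaminophen alone, was at 231 CPM with acetaminophen and exosomes and 152 CPM with exosomes alone (ratio 1.52, 1.27 to 1.8). ALB was at 4999.9 CPM with acetaminophen and exosomes, against 7714 CPM with exosomes alone (0.648, 0.627 to 0.67). The count was 0 of 9 in either direction where 10.4% of all genes were apart. In caffeine-treated cells the count was again 0 of 9, where 25.6% of all genes were apart. RBP4 had the highest ratio there, at 541 CPM with acetaminophen and caffeine and 318 CPM with caffeine alone (1.7, 1.61 to 1.79). ALB had the lowest, at 3389 CPM with acetaminophen and caffeine and 6376 CPM with caffeine alone (0.532, 0.523 to 0.541). ALB was thus lower with acetaminophen on these backgrounds and higher on the untreated one. The interaction terms given below with the additive model each compare 1 background with the other 2 pooled, and none of the 9 passed them. The difference between any 2 single backgrounds was not tested.

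Serum exosomes are vesicles that can deliver RNA and protein to cells. Against the control, exosomes alone left all 9 genes within 2-fold: 0 of 9 were apart, where 5.01% of all genes were. The ratios ran from 0.626 (TTR, whose level was 152 CPM under exosomes, against 243 CPM in control cells; interval 0.537 to 0.731) to 1.28 (HP, with 29 and 7 counts; 0.549 to 3.47). SERPINA1 levels were 2038 CPM under exosomes and 2032 CPM in control cells. Added to acetaminophen, exosomes went with higher levels of 4 genes and a lower level of 1, where 10.2% of all genes were apart and higher and 8.89% lower. ORM1 was at 168 CPM with acetaminophen and exosomes, against 14.8 CPM with acetaminophen alone (ratio 11.4, 7.15 to 19). AMBP had a ratio of 5.07 (4.51 to 5.72), RBP4 of 3.9 (3.19 to 4.77) and TTR of 3.09 (2.42 to 3.97). ALB was at 4999.9 CPM with the combination, against 12644 CPM with acetaminophen alone (ratio 0.395, 0.382 to 0.409). This comparison shares the acetaminophen library with the one against the control, so the 2 are not independent. After removal of the trend 4 of the 5 remained at least 2-fold, without ALB at -0.96 on the log2 scale.

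Caffeine, a methylxanthine that blocks adenosine receptors and phosphodiesterases, went with a higher HP level in both of its comparisons. HP was at 80.4 CPM (685 counts) with caffeine, against 6.77 CPM (7 counts) in the control, a ratio of 11.9 (5.73 to 29.6). It was at 45.9 CPM (243 counts) with acetaminophen and caffeine, against 9.85 CPM (14 counts) with acetaminophen alone, a ratio of 4.66 (2.72 to 8.65). The caffeine libraries were the only ones of the 9 above 10 CPM of HP, since the other 7 ranged from 2.97 to 9.85 CPM. The trend on GC content and length moved these log2 ratios little, to 3.51 and 2.30 where 3.47 and 2.17 had been measured. HP shares 34.4% of its 50-base transcript windows with its neighbour and near copy HPR, so reads may be split or lost between them. HPR was at 14.2 CPM with caffeine, 0.756 CPM with acetaminophen and caffeine, 0.704 CPM with acetaminophen and 1.94 CPM in the control. AHSG, RBP4 and C3 also overlap other annotated genes (AC068631.1 and FFAR4 on the opposite strand, GPR108 and AC008760.2 on the same strand). The summed counts of HP and HPR gave ratios of 10.9 (5.69 to 23.8) and 4.42 (2.63 to 8.02). For acetaminophen with caffeine against caffeine alone the sum gave 0.494 (0.426 to 0.57), against 0.571 (0.492 to 0.663) for HP. For arsenic with copper against the control the sum gave 0.341 (0.115 to 0.997), against 0.439 (0.139 to 1.42) for HP. In these pairs the sum was at least 2-fold lower with an interval excluding 1, whereas HP by itself was not apart. The second of these sums rests on few counts. There were 8 of HP and 0 of HPR with arsenic and copper, against 7 and 2 in the control. The TXNL4B gene overlaps HP on the opposite strand and the strand setting of the counting is unknown here, and reads of these 2 genes cannot be told apart with certainty.

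Of the 9 genes 1 (HP) was higher and 3 were lower with caffeine alone than in the control, where 11.6% of all genes were apart and higher and 8.63% lower. ORM1 was at 26.2 CPM with caffeine, against 218 CPM in the control (ratio 0.12, 0.0994 to 0.145). AHSG was at 399.7 CPM, against 1035 CPM (0.386, 0.36 to 0.414), and RBP4 at 318 CPM, against 672 CPM (0.473, 0.435 to 0.515). ALB, TTR, AMBP and SERPINA1 had ratios of 0.871 to 1.07, and C3 of 1.47 (1.39 to 1.56). With the trend on GC content and length removed, ORM1 (-2.09 on the log2 scale, -3.06 as measured) and AHSG (-1.01, -1.37 as measured) remained at least 2-fold lower. RBP4 did not (-0.58, -1.08 as measured). The log2 ratio changed sign for TTR (-0.20 to 0.64), AMBP (-0.13 to 0.33) and ALB (-0.09 to 0.10). With acetaminophen present, 6 of the 9 were higher with caffeine and 1 was lower, where 18.8% of all genes were higher and 15% lower. AMBP was at 2028 CPM with the combination, against 267 CPM with acetaminophen alone (ratio 7.58, 6.84 to 8.42), and RBP4 at 541 CPM, against 103 CPM (5.23, 4.43 to 6.21). TTR had a ratio of 3.15 (2.58 to 3.88), C3 of 2.72 (2.57 to 2.88) and ORM1 of 2.1 (1.33 to 3.48). C3, at 2542 CPM with the combination and 936 CPM with acetaminophen alone, was apart in this pair alone of the 12. ALB was at 3389 CPM with the combination, against 12644 CPM with acetaminophen alone (0.268, 0.263 to 0.274). With the trend removed 5 of these 7 genes remained at least 2-fold, and C3 (0.61 on the log2 scale) and ORM1 (0.67) did not.

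**Figure D3:**
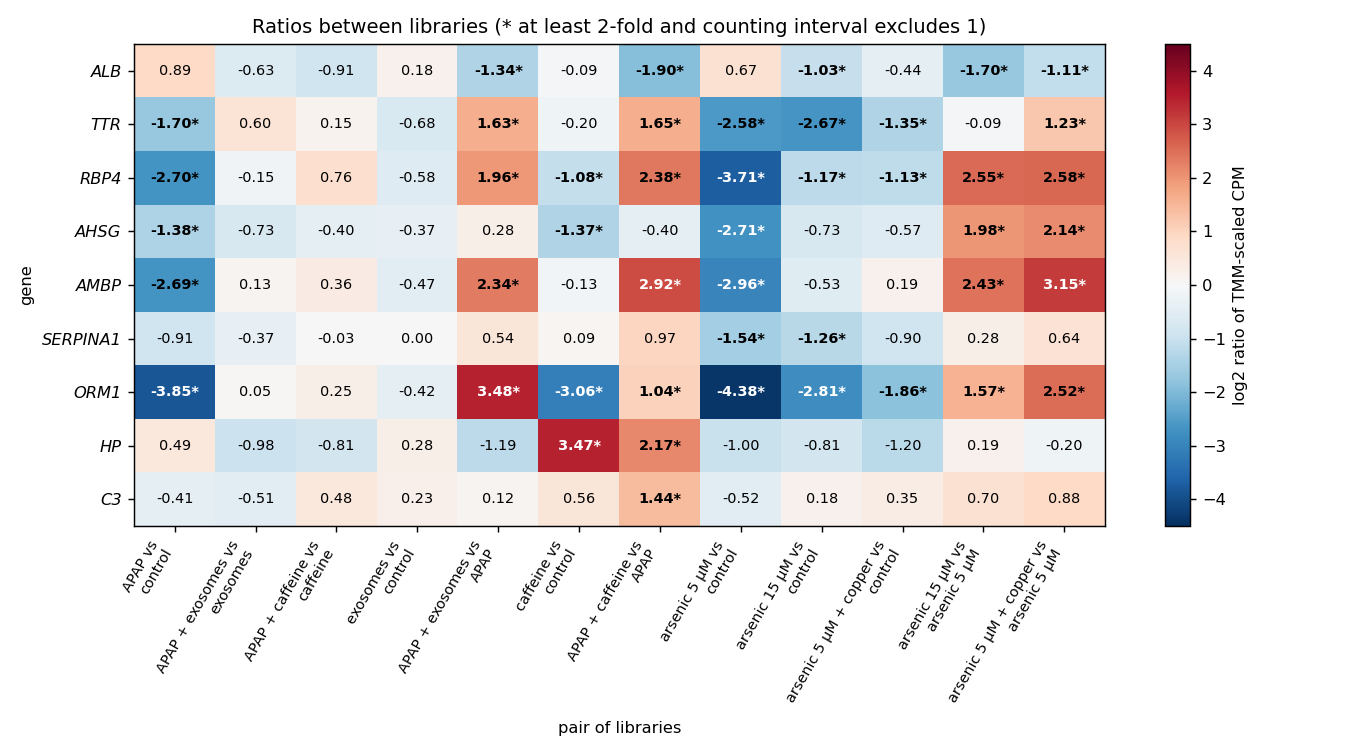
Log2 ratio of TMM-scaled CPM for each gene (rows) in each of the 12 library pairs (columns, first-named library over second; APAP is acetaminophen), with colour from blue (lower) to red (higher). Stars mark ratios of at least 2-fold whose counting interval excludes 1; none stands in the pairs of acetaminophen on the exosome and caffeine backgrounds or of exosomes against control.

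Arsenic, a thiol-binding toxicant, was given at 2 doses, and 3 genes were apart and lower than the control in each arsenic library. These comparisons share the single control library, in which all 3 genes had their highest level, and are not independent. TTR was at 243 CPM in the control, 40.5 CPM at 5 µM and 38.1 CPM at 15 µM, and at 95.1 CPM at 5 µM with copper. The ratios of TTR to the control were 0.167 (0.13 to 0.212) at 5 µM, 0.157 (0.124 to 0.198) at 15 µM and 0.392 (0.328 to 0.468) with copper. The TTR levels at 15 and 5 µM did not differ beyond counting error (ratio 0.941, 0.706 to 1.25). RBP4 was at 672, 51.2 and 299.9 CPM at 0, 5 and 15 µM, and at 307 CPM with copper. ORM1 was at 218, 10.2 and 30.9 CPM at 0, 5 and 15 µM, and at 59.8 CPM with copper. Its ratio to the control was 0.047 (0.0295 to 0.0718) at 5 µM, the lowest of any of the 9 in any pair, and 0.142 (0.109 to 0.183) at 15 µM.

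The remaining genes were read across the same doses. AMBP was at 1724, 222 and 1197 CPM at 0, 5 and 15 µM, and at 1971 CPM with copper. AHSG was at 1035, 158 and 623 CPM, and at 698 CPM with copper. Both were lowest at 5 µM and neither was apart from the control at 15 µM or with copper. SERPINA1 was at 2032, 697 and 847 CPM, and at 1087 CPM with copper, with ratios to the control of 0.343 (0.321 to 0.366) at 5 µM and 0.417 (0.393 to 0.443) at 15 µM. ALB was at 6809, 10855 and 3339 CPM, and at 5024 CPM with copper. It was higher than the control at 5 µM (ratio 1.59, 1.55 to 1.64) and lower at 15 µM (0.49, 0.475 to 0.506). The higher level at 5 µM rested on the TMM scaling, whose factor was 0.64 at 5 µM and 1.09 in the control. As a share of all counts on genes ALB was not higher, with 25456 of 3671322 at 5 µM and 7037 of 951816 in the control. With the trend on GC content and length removed, the log2 ratio of ALB at 5 µM was 0.37 (0.67 as measured). C3 was at 1241, 863 and 1404 CPM, and at 1585 CPM with copper, and was not apart in any arsenic pair. HP had 7, 8 and 11 counts at 0, 5 and 15 µM and 8 with copper, and the intervals of its ratios to the control all include 1.

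**Figure D4:**
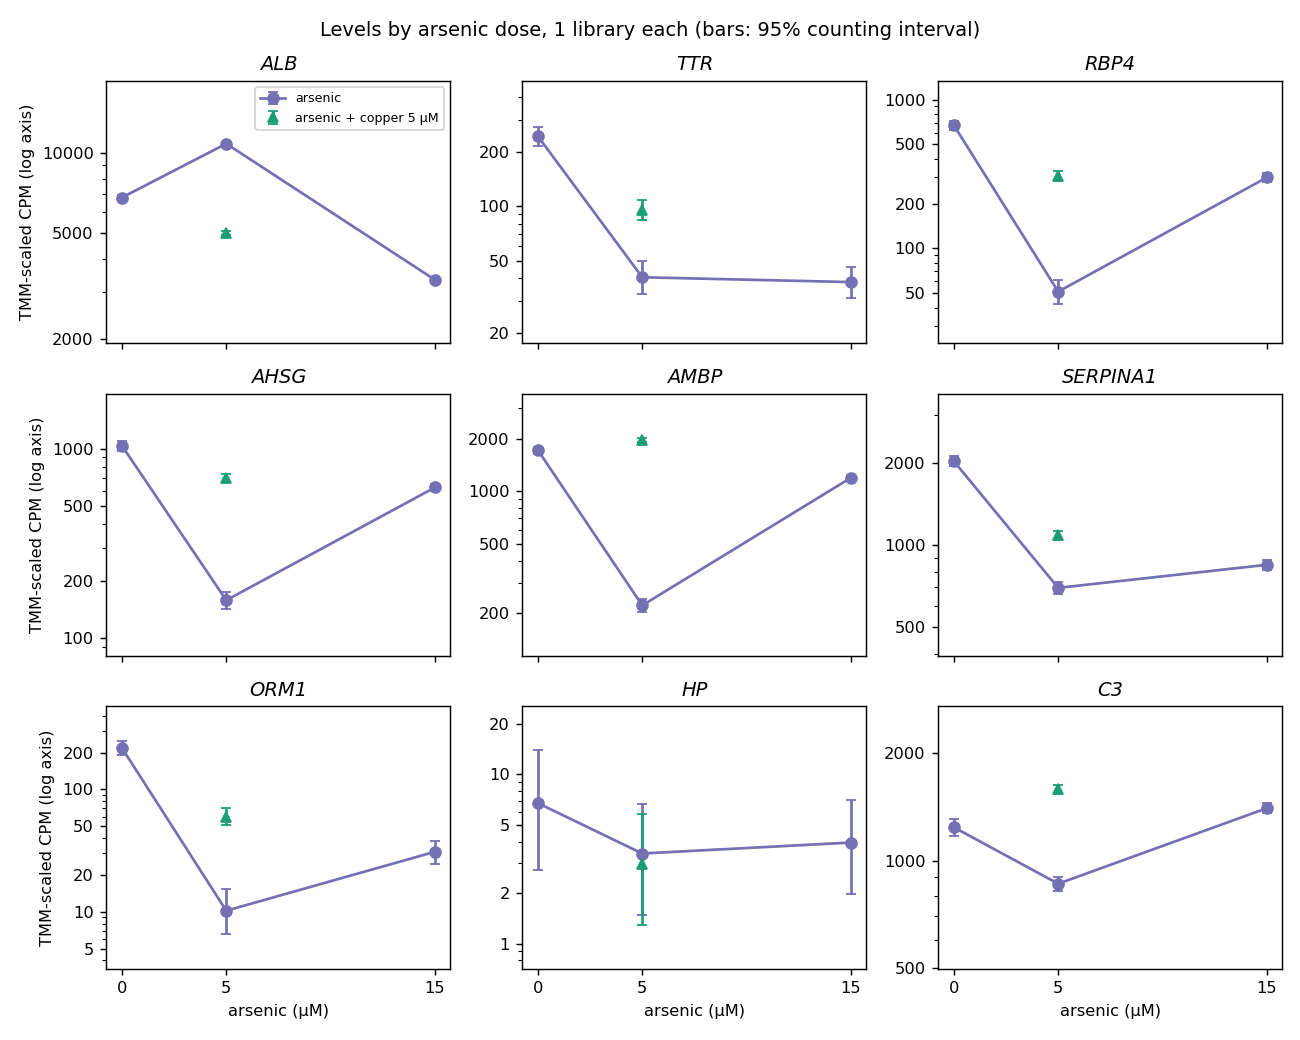
TMM-scaled CPM (log axis) of each gene at 0, 5 and 15 µM arsenic (circles joined by lines, 0 being the untreated control) and at 5 µM arsenic with 5 µM copper (triangles), 1 library each, with 95% counting intervals as bars. TTR was near 40 CPM at both doses, whereas RBP4, AHSG, AMBP and ORM1 were lowest at 5 µM.

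In counts, 6 of the 9 genes were lower and 0 higher at 5 µM than in the control (15% of all genes lower, 16.4% higher), with a median log2 ratio of -2.58 over the 9 and -0.23 over all genes. At 15 µM 5 of the 9 were lower and 0 higher (14.4% and 16.5% of all genes), with medians of -1.03 and -0.16. With copper 3 were lower and 0 higher (7.11% and 9.22% of all genes), with medians of -0.90 and -0.03. The arsenic 5 µM library is one of the 2 that stood apart. With the trend on GC content and length removed, all 6 genes remained at least 2-fold lower at 5 µM. At 15 µM TTR (-1.75 on the log2 scale), ORM1 (-1.86) and SERPINA1 (-1.35) remained, while ALB (-0.54) and RBP4 (-0.78) did not. With copper none of the 3 remained, TTR being at -0.49, RBP4 at -0.85 and ORM1 at -0.95. Between the arsenic libraries, the ratio of 15 to 5 µM was 5.86 (4.83 to 7.16) for RBP4, 5.39 (4.91 to 5.92) for AMBP, 3.95 (3.53 to 4.43) for AHSG, 3.02 (1.9 to 4.97) for ORM1 and 0.308 (0.3 to 0.315) for ALB. These were the 4 higher and 1 lower of the 9 in that pair, where 19.6% of all genes were higher and 17.5% lower. With the trend removed all 5 remained at least 2-fold, at log2 ratios of 1.77 for RBP4 (2.55 as measured), 1.71 for AMBP (2.43), 1.51 for AHSG (1.98), 1.24 for ORM1 (1.57) and -1.10 for ALB (-1.70). Copper with arsenic at 5 µM against arsenic at 5 µM alone gave 5 higher genes and 1 lower, where 16.5% of all genes were higher and 13.7% lower. The ratio was 8.87 (8.11 to 9.72) for AMBP, 6 (4.95 to 7.33) for RBP4, 5.85 (3.79 to 9.39) for ORM1, 4.42 (3.95 to 4.96) for AHSG, 2.35 (1.85 to 3) for TTR and 0.463 (0.453 to 0.473) for ALB. With the trend removed ALB was no longer 2-fold lower (-0.65 on the log2 scale, -1.11 as measured). The other 5 remained, at 2.27 for AMBP (3.15 as measured), 2.08 for ORM1 (2.52), 1.64 for RBP4 (2.58), 1.54 for AHSG (2.14) and 1.21 for TTR (1.23). These 2 comparisons share the arsenic 5 µM library.

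An additive model over all 9 libraries (edgeR's quasi-likelihood test with terms for acetaminophen, exosomes, caffeine and arsenic, Benjamini-Hochberg adjustment over 18237 genes) takes departures from additive effects as its spread. None of the 9 genes passed at an adjusted p of 0.05 in any term by edgeR or by DESeq2. For acetaminophen 0 of 9 passed where 0.0219% of all genes did, and the coefficient was negative for 9 of 9 genes and for 52.4% of all genes. Without the acetaminophen and arsenic 5 µM libraries the coefficient turned positive for TTR (0.41), RBP4 (0.34), AMBP (0.28), ORM1 (0.18) and C3 (0.02). For exosomes 0 of 9 passed, as did 0% of all genes (113 genes at an unadjusted p below 0.05, 0 by DESeq2). For caffeine 0 of 9 passed where 0.0823% of all genes did, and HP had the largest coefficient, at a log2 fold change of 2.81 (SE 0.769, unadjusted p 0.000812, edgeR adjusted p 0.189, DESeq2 adjusted p 0.0695). HP passed when the arsenic 5 µM library was left out (2.82, edgeR adjusted p 0.0123) and when the arsenic 15 µM library was left out (2.80, adjusted p 0.0282). Over the 9 fits that each leave out 1 library, the adjusted p of HP ranged from 0.0123 to 1. ORM1 had a caffeine coefficient of -1.51 (SE 0.908, edgeR adjusted p 0.727), which was -3.12 (adjusted p 0.024) without the acetaminophen and arsenic 5 µM libraries and 1.01 (adjusted p 0.717) without the control.

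For arsenic 0 of 9 passed where 0.494% of all genes did. This term is coded as arsenic present or absent, and pools the libraries at 5 µM, at 15 µM and at 5 µM with copper. For ALB, AMBP and C3, whose levels in those libraries lay on both sides of the control, the coefficient averages over opposite directions. The coefficient was negative for 7 of 9 genes and for 47.5% of all genes, with a median of -0.92 over the 9 and 0.07 over all genes. ORM1 was at -1.88 (SE 0.719, unadjusted p 0.013, edgeR adjusted p 0.327) and TTR at -1.53 (SE 0.663, unadjusted p 0.0273, adjusted p 0.443). Leaving out the control moved TTR to 0.02 and ORM1 to 1.34. Extra terms for single libraries gave 0 of 9 as well. For acetaminophen by exosomes and by caffeine 0% of all genes passed (87 and 198 genes at an unadjusted p below 0.05, and 0 by DESeq2 in each). RBP4 had an acetaminophen by caffeine coefficient of 2.19 (SE 1.5, edgeR adjusted p 1) and ORM1 of 2.10 (SE 1.42, adjusted p 1). For arsenic at 15 µM 1.09% of all genes passed, and for copper 0% (428 genes at an unadjusted p below 0.05, 0 by DESeq2). The largest copper coefficient of the 9 was that of ORM1, at 1.53 (SE 0.887, edgeR adjusted p 1).

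**Figure D5:**
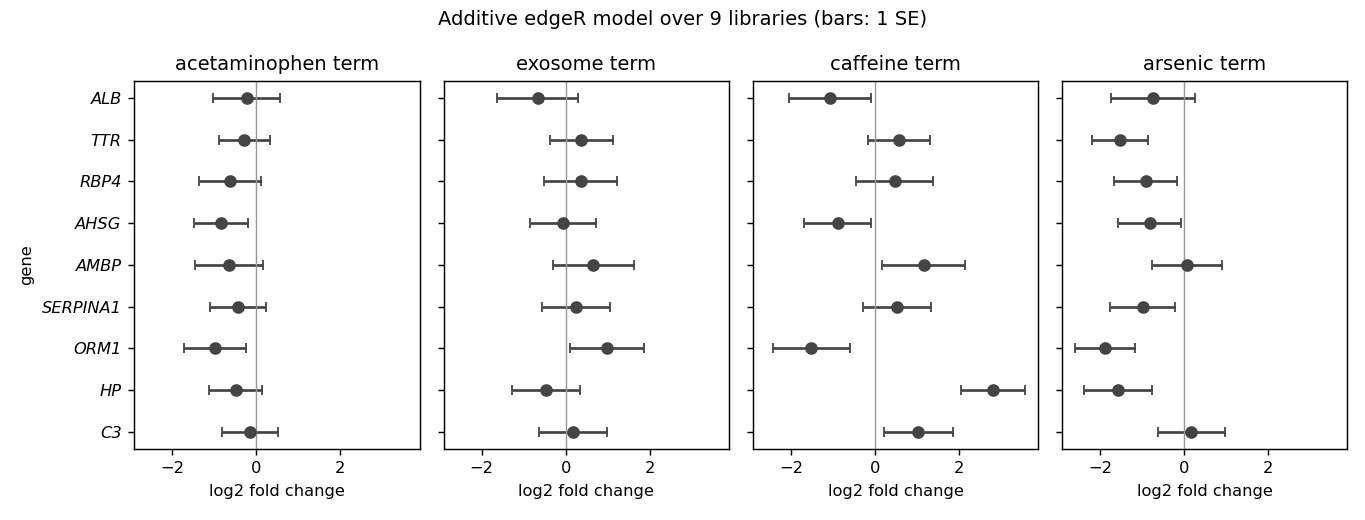
Log2 fold change of each gene in the 4 terms of the additive edgeR model over 9 libraries, with bars of 1 SE (absolute log2 fold change divided by the root of its F statistic). HP in the caffeine term (2.81) lies farthest from 0, and no gene passed the adjusted threshold in any term.

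The genes varied together in part. Over the 9 libraries Pearson's r of log2(CPM + 1) was 0.94 for TTR with SERPINA1, 0.93 for RBP4 with AMBP, 0.79 for AHSG with ORM1 and 0.78 for RBP4 with ORM1. ALB ran against AMBP (-0.78), C3 (-0.69) and RBP4 (-0.66). These values describe 9 libraries that share 1 cell line and differ in GC trend and depth. RBP4, which travels in plasma bound to TTR, had 1.39 counts (not scaled to length) per count of TTR with acetaminophen, 1.26 with arsenic 5 µM and 7.87 with arsenic 15 µM, against 2.77 in the control. Of 10980 other genes averaging 5 CPM or more, SSBP4 and POLDIP2 (r 0.98 each) and SLC2A4RG and KRI1 (r 0.97 each) were among the closest to the mean profile of the 9. SSBP4 had 3 counts with acetaminophen alone and 0 with arsenic at 5 µM alone. For single genes the closest was WDR76 for ALB (0.97), KHK for TTR (0.98), NAA10 for AHSG (0.99), CSK for RBP4 (0.99), APOM for SERPINA1 (0.98), MALRD1 for HP (0.97), SND1 for C3 (0.98), RPS25 for ORM1 (0.97) and EPN1 for AMBP (0.99). Such values are the highest of many candidates over few libraries.

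ORM1 shares 47.4% of its 50-base windows with ORM2, the second orosomucoid gene, so the division of reads between them is uncertain. ORM2 was at 24.6 CPM with acetaminophen, 59.9 CPM with acetaminophen and exosomes, 151 CPM with exosomes, 41.6 CPM with acetaminophen and caffeine, and 30.9 CPM with caffeine, against 253 CPM in the control. It was at 20.5 CPM at 5 µM arsenic, 25.9 CPM at 15 µM and 43.5 CPM with copper, so the control had the highest ORM2 level as it had the highest ORM1 level. Summed over both genes, the ratio to the control was 0.0838 (0.0624 to 0.111) for acetaminophen, 0.121 (0.107 to 0.138) for caffeine, 0.0653 (0.0503 to 0.0838) for arsenic 5 µM and 0.121 (0.1 to 0.145) for arsenic 15 µM. In the arsenic term ORM2 was at -2.41 (SE 0.668, edgeR adjusted p 0.0912). With acetaminophen the summed ratio of the exosome combination to the drug alone was 5.79 (4.27 to 7.97) and that of the caffeine combination 1.84 (1.39 to 2.48), below 2-fold.

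Other genes of the same plasma protein classes were counted from lists. Over all genes, 13% were higher and 12.1% lower with acetaminophen than in the control (median log2 ratio -0.20), and 16.4% were higher and 15% lower with arsenic 5 µM (median -0.23). With the trend removed these shares were 7.16% and 9.1% with acetaminophen and 10.6% and 15.3% with arsenic 5 µM. Among 16 tested positive acute phase proteins, 0 were higher and 6 lower with acetaminophen than in the control, with a median log2 ratio of -1.44, and 2 were higher and 7 lower with arsenic 5 µM. Of 15 with a value after removal of the trend, 0 were higher and 3 lower with acetaminophen, and 1 was higher and 4 lower with arsenic 5 µM. The most abundant, A2M (alpha-2-macroglobulin, a protease inhibitor), was at 2234 CPM with acetaminophen and 1489 CPM in the control, and CP (ceruloplasmin, which carries copper) at 139 CPM and 74.5 CPM. Like ALB, these 2 were not low in that library. ORM2, also among the most abundant of this list, was low there, at 24.6 CPM against 253 CPM in the control. Among 29 tested complement genes, 3 were higher and 7 lower with acetaminophen than in the control, and 2 were higher and 8 lower with arsenic 5 µM. After removal of the trend, 28 had a value with acetaminophen (0 higher, 8 lower), and 27 had one with arsenic 5 µM (1 higher, 9 lower). VTN (vitronectin) was at 119.6 CPM with acetaminophen and 546 CPM in the control, CLU (clusterin) at 441 CPM and 999 CPM, and C5 at 344 CPM and 173 CPM. Among 14 plasma carriers 0 were higher and 2 lower with acetaminophen, and 1 was higher and 6 lower with arsenic 5 µM, so that with acetaminophen the lower share was near that of all genes. Of 13 with a value after removal of the trend, 1 was lower with acetaminophen, 7 were lower with arsenic 5 µM, and 0 were higher with either. AFP, the fetal counterpart of albumin, was at 7789 CPM with acetaminophen, 5692 CPM with arsenic 5 µM and 1470.2 CPM with arsenic 15 µM, against 5907 CPM in the control. Among 18 protease inhibitors 0 were higher and 5 lower with acetaminophen, and 1 was higher and 7 lower with arsenic 5 µM, against 0 and 4 and again 0 and 4 of 18 with the trend removed. The lists share genes, so their counts are not independent. A2M, for example, is also among the protease inhibitors, and AFP is both a plasma carrier and a hepatocyte marker.

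On the caffeine background, where none of the 9 was apart with acetaminophen, 12.6% of all genes were apart and higher and 13% lower. In the lists 13 of 29 complement genes were lower and 2 higher, 9 of 18 protease inhibitors lower and 0 higher, 6 of 14 carriers lower and 0 higher, and 4 of 16 positive acute phase proteins lower and 1 higher. The median log2 ratios were -0.76, -1.16, -1.01 and -0.24, in that order, and 0.00 over all genes. CP was at 28.9 CPM with acetaminophen and caffeine and 154 CPM with caffeine alone, and AFP at 4724 CPM and 9076 CPM. Whether the 9 genes differ from these lists was not tested. Across the additive terms 1 of these plasma protein genes passed, C4BPB, a subunit of the complement inhibitor C4b-binding protein. It fell with arsenic (log2 fold change -3.61, SE 0.867, edgeR adjusted p 0.0432), to 2.13 CPM at 5 µM and 0.36 CPM at 15 µM, and 2.23 CPM with copper, against 25.2 CPM in the control. The arsenic libraries held 5, 1 and 6 counts of it, so its fold is imprecise. Its adjusted p ranged from 0.000988 to 0.794 with 1 library left out, and the call was lost without the control, acetaminophen, exosome, or acetaminophen with exosome library.

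Regulators and receptors were counted in the same way. Of 21 tested genes of interleukin-6, interleukin-1 and TNF signalling, 5 were higher and 2 lower with acetaminophen than in the control (13% and 12.1% of all genes), with a median log2 ratio of 0.46, against -0.20 over all genes. With the trend removed 1 was higher and 0 lower (7.16% and 9.1% of all genes), with a median of 0.18. SOCS3, the STAT3-induced inhibitor of that pathway, rose in the arsenic 15 µM term (3.04, SE 0.802, edgeR adjusted p 0.0219), a term carried by that 1 library. Its level was 4.84, 9.38 and 88.1 CPM at 0, 5 and 15 µM, and 11.9 CPM with copper. SOCS3 also passed by DESeq2, and its edgeR adjusted p ranged from 0.00803 to 0.201 with 1 of the other 8 libraries left out. The call was lost without the exosome, caffeine, arsenic 5 µM or either combination library with acetaminophen. STAT3 itself was at 74.5, 89.1 and 85.6 CPM at those doses. Of 16 tested liver transcription factors, 1 was higher and 5 lower with acetaminophen than in the control (13% and 12.1% of all genes). At 5 µM arsenic, 2 were higher and 7 lower (16.4% and 15% of all genes). At 15 µM arsenic the counts were again 2 and 7 (16.5% and 14.4% of all genes). Trend removal changed these counts to 0 and 3, 1 and 7, and 2 and 10. HNF4A, a regulator of many of these promoters, was at 434 CPM with acetaminophen and 409 CPM in the control. With arsenic it was at 409, 199.6 and 152 CPM at 0, 5 and 15 µM. Of 11 tested receptors and secretion partners, 3 were higher and 4 lower with acetaminophen than in the control, and 1 and 3 with the trend removed. LRP2 rose in the caffeine term (4.19, SE 0.819, edgeR adjusted p 0.0233). LRP2 (megalin), which takes up retinol-binding protein and albumin in kidney, was at 129 CPM with caffeine and 2.9 CPM (3 counts) in the control. It was at 87.7 CPM with acetaminophen and caffeine and 9.15 CPM with acetaminophen. Its adjusted p ranged from 2.9e-05 to 0.527 with 1 library left out, and the call was lost without the control, acetaminophen, exosome, caffeine or either combination library with acetaminophen. Hepatocyte markers other than the 9 gave 0 higher and 3 lower of 11 with acetaminophen, 0 and 6 with arsenic 5 µM and 0 and 7 with arsenic 15 µM. Trend removal gave 0 and 1, 1 and 5, and 0 and 9, where 16.3% of all genes were higher and 12.6% lower with arsenic 15 µM.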

How the data were processed

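Ribosomal RNA-depleted total RNA of 9 HuH-7 cultures was sequenced as 1 library per condition. The deposited tables, 1 per library, hold raw read counts for Ensembl genes. Per the submitters' processing notes the tools were TopHat2 2.0.13 and HTSeq 0.6.1 and the build GRCh37. Per the labels' protocols, RNA was isolated with mirVana and depleted with RiboMinus before preparation with an Ion Total RNA-Seq kit. Annotation release, strand setting and exposure times: not given in the sources used here. HTSeq's summary lines (42.3% to 70.3% of a table's reads) were left out of library sizes.

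Symbols, gene types, transcript length and GC content came from RefSeq and GENCODE 29 (GRCh38), matched by identifier for 52526 of 63677 identifiers; no coordinates were converted. Genes at 1 CPM or more in 2 or more libraries were kept. An additive edgeR 4.0.16 quasi-likelihood model (R 4.3.3, TMM scaling, 4 residual degrees of freedom) had terms for acetaminophen, exosomes, caffeine and arsenic. Extra terms were added 1 at a time, with 3 residual degrees of freedom. The SE is the absolute log2 fold change divided by the root of F. DESeq2 1.42.0 was run beside it. The additive edgeR fit alone was run on simulated counts, drawn with a common dispersion and no GC trend. The extra terms and DESeq2 were not. For 12 library pairs, ratios carry the exact conditional binomial 95% interval, with 0.5 prior counts for the 2-fold limit. The GC and length trend was removed by loess (span 0.3) on the 97.3% of tested genes with values. The named genes were the 9, their near copies HPR and ORM2, the most abundant genes of each list and any called, and the genes of highest r, of which 1 is not reported here. The 9 genes and the lists were chosen with earlier results of these data known. Figures were drawn with matplotlib 3.10.9 in Python 3.11.15. Levels of 1 library per condition give no spread between cultures.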

Additional observations from a re-analysis of the deposited data

Results flagged for a closer look

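With caffeine, 2 of the 9 genes were apart in opposite directions on 2 backgrounds. The RBP4 ratio was 0.473 for caffeine against the control and 5.23 for acetaminophen with caffeine against acetaminophen. The ORM1 ratio was 0.12 for caffeine against the control and 2.1 for acetaminophen with caffeine against acetaminophen. The nearest term of the model, acetaminophen by caffeine, gave 2.19 (SE 1.5) for RBP4 and 2.10 (SE 1.42) for ORM1 on the log2 scale, each at an edgeR adjusted p of 1. That term pools the acetaminophen effect over the untreated and exosome backgrounds. The difference between the 2 ratios of each gene was therefore not itself tested. The acetaminophen library, the denominator of the second ratio of each gene, is 1 of the 2 that stood apart. Its levels, relative to the mean of all libraries, fell with GC content (r -0.50). Those of the numerator, acetaminophen with caffeine, rose with GC content (r 0.30). With the trend on GC content and length removed, the log2 ratios were -0.58 and 1.5 for RBP4 and -2.09 and 0.67 for ORM1.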

How the results depend on the processing

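None of the 9 genes passed a term in the fit to all libraries, so the settings bear on their directions. Of 648 values of the 9 genes in the terms under other settings, 584 kept direction and side of the threshold, 61 changed sign and 3 passed. Of 456 ratios between library pairs under other settings, 270 stayed within the counting interval, 186 moved beyond it and 0 of those apart changed sign. Summed counts with ORM2 or HPR, list counts with the trend removed and libraries left out for SOCS3 were settings chosen after seeing the data. No paired analysis was possible because no condition has numbered replicates; comparisons within a background rest on single libraries. The total counts limit HP most, with 3 to 29 counts outside the caffeine libraries. The causes of these changes were not tested.

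Genes called for acetaminophen were 4, and 46 with no count filter, 49 by DESeq2 and 58 without the acetaminophen and arsenic 5 µM libraries. For caffeine they were 15, and 7 with DESeq2 size factors, 49 with no filter, 7 among protein-coding genes alone, 51 by DESeq2 and 72 without those 2 libraries. For arsenic they were 90, and 24 with DESeq2 size factors, 269 with no filter, 12 among protein-coding genes and 170 by DESeq2. For the arsenic 15 µM term they were 198, and 87 among protein-coding genes and 96 by DESeq2. With 1 library left out the counts ran from 0 to 179 (acetaminophen), 0 to 3 (exosomes), 0 to 222 (caffeine) and 0 to 780 (arsenic), each highest without arsenic 5 µM. With the GC and length trend removed, genes apart were 2727 for acetaminophen against control (4590 before), 4073 for acetaminophen with caffeine against acetaminophen (6155), 2168 for acetaminophen with exosomes against acetaminophen (3487), 3373 for arsenic with copper against arsenic 5 µM (5516) and 444 for exosomes against control (913). The C4BPB call was lost with DESeq2 size factors (adjusted p 0.0777) and among protein-coding genes (0.0855), and the LRP2 call with DESeq2 size factors (0.0501).

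Without the acetaminophen and arsenic 5 µM libraries, the acetaminophen coefficient changed sign for AMBP (0.28), C3 (0.02), ORM1 (0.18), RBP4 (0.34) and TTR (0.41). The exosome coefficient changed for ALB (0.14), AMBP (-0.64), C3 (-0.11), HP (0.17), ORM1 (-0.58), RBP4 (-0.91), SERPINA1 (-0.19) and TTR (-0.67). The caffeine coefficient changed for AMBP (-0.18), RBP4 (-0.95) and TTR (-0.41), and the arsenic one for AMBP (-0.21). AMBP in the arsenic term was also at -0.01 with DESeq2 size factors, -0.03 among protein-coding genes and -0.01 by DESeq2, and SERPINA1 in the arsenic 15 µM term at 0.00 with DESeq2 size factors and 0.00 by DESeq2.

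With 1 library left out, coefficients that changed sign ranged as follows. For acetaminophen they were ALB (-0.78 to 0.14), AMBP (-1.30 to 0.26), C3 (-0.48 to 0.02), ORM1 (-1.88 to 0.16), RBP4 (-1.45 to 0.32) and TTR (-0.79 to 0.39). For exosomes they were AHSG (-0.45 to 0.38), ALB (-1.40 to 0.25), AMBP (-0.53 to 2.41), C3 (-0.10 to 0.40), HP (-1.19 to 0.28), ORM1 (-0.47 to 3.57), RBP4 (-0.80 to 2.22), SERPINA1 (-0.08 to 0.64) and TTR (-0.56 to 1.53). For caffeine they were AMBP (-0.01 to 2.86), ORM1 (-2.95 to 1.01), RBP4 (-0.78 to 2.16) and TTR (-0.25 to 1.76). For arsenic they were AMBP (-0.59 to 2.33), C3 (-0.00 to 0.45), ORM1 (-2.65 to 1.34), RBP4 (-1.57 to 1.40) and TTR (-2.08 to 0.02).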
